A study of Caenorhabditis elegans with 2 samples.

Results

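The binding sites of HSF-1 on the X chromosome of Caenorhabditis elegans are the 240 peaks that lie on X among the 2935 peaks of the thresholded list made from both replicates (8.18%, 95% Wilson interval 7.24 to 9.22%). They were chosen by chromosome alone, and the other 2695 peaks of the same list, on the 5 autosomes, are the comparison throughout. The study precipitated HSF-1 fused to green fluorescent protein from whole young adults of 63 h with an antibody against green fluorescent protein, in 2 biological replicates of 1 group. The worms were strain RW12254, with the allele st12254[hsf-1::TY1::EGFP::3xFLAG] made by CRISPR at the gene itself, so the tagged protein was under the gene's own control, and whole worms mix all tissues. They were synchronised as starved L1 larvae after bleaching, and their sex is recorded as not collected, and the labels name no heat treatment. No control library was analysed here, and no source used here gives the number of reads per library, so the depth is unknown.

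HSF-1 is the transcription factor of the heat shock response. It binds heat shock elements, arrays of inverted GAA units, as a trimer, and switches on chaperone genes when proteins misfold. It also acts in growth and development without heat stress. In this species hermaphrodites carry a pair of X chromosomes and males a single one. A dosage compensation complex lowers transcription from both X chromosomes of hermaphrodites, and X is poor in genes used in the germline. X is also rich in transfer RNA (tRNA) genes, which RNA polymerase III transcribes.

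Sequences from X show the kinds of site described below. Each covers a peak summit and the 100 bases on either side of it, read 5′ to 3′ on the plus strand of the WBcel235 (ce11) reference. The element searched was TTCNNGAANNTTC or GAANNTTCNNGAA, that is 3 alternating units, on both strands, and overlapping matches were counted at every start position. Such an element without mismatch occurred in 0.929% of all windows of that length on X and in 1.65% of those of the autosomes. With 1 mismatch allowed the shares were 13.1% on X and 18.1% on the autosomes.

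The strongest pair of X peaks lies over runs of elements, and the windows are shown because the runs carry the highest signals on the chromosome. They are at chrX:1375152-1375352, nearest to fbxa-190, and at chrX:2057900-2058100, nearest to Y102A11A.1. Capitals mark every base inside a perfect element, and the same stretch of elements recurs along both windows.
fbxa-190 run: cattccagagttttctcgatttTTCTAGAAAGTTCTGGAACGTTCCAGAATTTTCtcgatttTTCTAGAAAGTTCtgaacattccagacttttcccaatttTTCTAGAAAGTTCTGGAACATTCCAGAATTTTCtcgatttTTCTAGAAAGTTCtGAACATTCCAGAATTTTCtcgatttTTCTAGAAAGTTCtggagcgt
Y102A11A.1 run: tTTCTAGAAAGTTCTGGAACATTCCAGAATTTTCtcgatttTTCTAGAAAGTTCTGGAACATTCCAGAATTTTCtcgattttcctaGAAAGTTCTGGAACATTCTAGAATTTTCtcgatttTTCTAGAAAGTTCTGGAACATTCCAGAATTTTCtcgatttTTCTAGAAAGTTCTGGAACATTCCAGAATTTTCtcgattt

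The strongest X promoter peaks with few elements each hold a single perfect element, marked in capitals. The windows are upstream of pek-1 (chrX:11414922-11415122), oga-1 (chrX:9347706-9347906) and cdd-1 (chrX:8211151-8211351). All 3 genes lie on the minus strand, so the gene is to the left of the window as printed.
pek-1: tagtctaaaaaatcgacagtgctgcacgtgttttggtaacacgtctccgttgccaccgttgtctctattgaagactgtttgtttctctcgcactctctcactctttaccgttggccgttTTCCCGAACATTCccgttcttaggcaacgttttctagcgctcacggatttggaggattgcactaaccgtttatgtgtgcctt
oga-1: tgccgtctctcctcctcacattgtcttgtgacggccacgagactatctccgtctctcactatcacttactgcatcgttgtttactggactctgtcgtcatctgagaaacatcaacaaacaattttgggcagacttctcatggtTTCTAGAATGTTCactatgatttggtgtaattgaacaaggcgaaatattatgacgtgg
cdd-1: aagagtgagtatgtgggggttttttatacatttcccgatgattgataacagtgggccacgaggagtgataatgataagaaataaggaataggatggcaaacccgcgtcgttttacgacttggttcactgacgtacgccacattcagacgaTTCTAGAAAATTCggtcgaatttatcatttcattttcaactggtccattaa

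The strongest X promoter peaks without a perfect element are upstream of F17H10.1 on the plus strand (chrX:13105009-13105209) and of nhr-17 on the minus strand (chrX:12668155-12668355). The F17H10.1 window holds no match even with 1 mismatch. Capitals in the nhr-17 window mark its 2 matches with 1 mismatch.
F17H10.1: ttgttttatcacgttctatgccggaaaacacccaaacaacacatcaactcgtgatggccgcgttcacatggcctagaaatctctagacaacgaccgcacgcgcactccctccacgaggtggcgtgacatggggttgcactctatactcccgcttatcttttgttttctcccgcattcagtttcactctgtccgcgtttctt
nhr-17: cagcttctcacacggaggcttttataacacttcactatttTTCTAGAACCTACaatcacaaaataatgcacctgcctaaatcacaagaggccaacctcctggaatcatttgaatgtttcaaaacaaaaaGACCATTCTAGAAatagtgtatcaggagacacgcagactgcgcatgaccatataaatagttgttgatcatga

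A further 3 windows were picked after their signals were seen, to show sites at noncoding genes. They lie at C30E1.9 on the plus strand (chrX:16929749-16929949), tts-1 on the minus strand (chrX:1504876-1505076) and the tRNA gene R01H5.t1 on the plus strand (chrX:12563709-12563909). Capitals mark the perfect element at C30E1.9 and the whole tRNA gene at R01H5.t1, and the tts-1 window holds no element even with 1 mismatch.
C30E1.9: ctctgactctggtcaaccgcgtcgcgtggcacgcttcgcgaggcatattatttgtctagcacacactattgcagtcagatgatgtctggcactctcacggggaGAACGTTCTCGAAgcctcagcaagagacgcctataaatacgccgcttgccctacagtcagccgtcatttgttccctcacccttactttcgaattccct
tts-1: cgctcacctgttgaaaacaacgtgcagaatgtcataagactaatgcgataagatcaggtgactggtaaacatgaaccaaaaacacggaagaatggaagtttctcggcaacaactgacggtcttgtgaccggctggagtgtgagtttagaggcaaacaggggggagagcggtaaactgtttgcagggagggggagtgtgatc
R01H5.t1: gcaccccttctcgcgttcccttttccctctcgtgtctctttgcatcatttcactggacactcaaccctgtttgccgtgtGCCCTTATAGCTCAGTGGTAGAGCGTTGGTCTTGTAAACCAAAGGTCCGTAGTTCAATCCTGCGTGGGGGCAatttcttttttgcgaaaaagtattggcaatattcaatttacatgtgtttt

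X carried fewer peaks than any autosome. Its 240 peaks compare with 470 to 569 on each autosome, although X is 17.7 Mb long and only chromosome V, at 20.9 Mb, is longer. Per Mb there were 13.5 peaks on X, against 26 to 41.1 on the single autosomes, and per 100 protein-coding genes 8.79 on X against 10.9 to 21.5. X holds 13.7% of the 19973 protein-coding genes and 17.7% of the base pairs. The list of replicate 1 gave X 67 of 1217 peaks (5.51%), the list of replicate 2 gave it 131 of 1877 (6.98%), and the stricter conservative list gave it 191 of 2572 (7.43%). The share was thus below that of genes in all 4 lists. Peaks on a chromosome share their libraries and are not replicates of a condition, so no p-value is given and intervals cover the counting of peaks only.

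X was better represented among the candidates than among the thresholded peaks. Before thresholding, the ranked list of candidate peaks held 97869, of which 3% entered the thresholded list. X held 16068 of these candidates, or 907 per Mb, against 991 per Mb on the autosomes, while thresholded peaks numbered 13.5 per Mb on X and 32.6 per Mb on the autosomes. Of the X candidates 1.49% entered the thresholded list (interval 1.32 to 1.69%), against 3.29% of the autosomal candidates (3.17 to 3.42%). The median signal of the candidates was 23.4 on X and 24.6 on the autosomes. Signal is the peak caller's value for a peak and is compared only within a list.

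X peaks fell into a few kinds that took up unlike shares of the chromosome's total. Each peak was placed in the first class it met, in the order run of 6 or more elements, 1 to 5 elements, tRNA gene within 200 bp, promoter window, and then location. On X these classes held 37, 18, 54 and 38 peaks, and 93 peaks met none of them. On the autosomes the same classes held 246, 187, 85 and 1138 peaks, and 1039 met none. Promoter peaks without an element or tRNA gene were thus 15.8% of X peaks and 42.2% of autosomal peaks, tRNA peaks were 22.5% and 3.15%, and run peaks were 15.4% and 9.13% (9.64% of all 2935). The single autosomes differed in run peaks, with 13.7% on IV and 13.4% on V, and 5.64 to 6.61% on I, II and III. A share of run peaks near that of X was thus also found on IV and V. A perfect element lay within 100 bp of 55 X summits (22.9%), against 10.9 to 21.9% of the summits of single autosomes and 16.6% of all. Peaks with 1 to 5 elements were 7.5% of X peaks, 6.94% of autosomal peaks and 6.98% of all. The class that met none had almost the same weight in both, 38.8% on X and 38.6% on the autosomes.

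**Figure D1:**
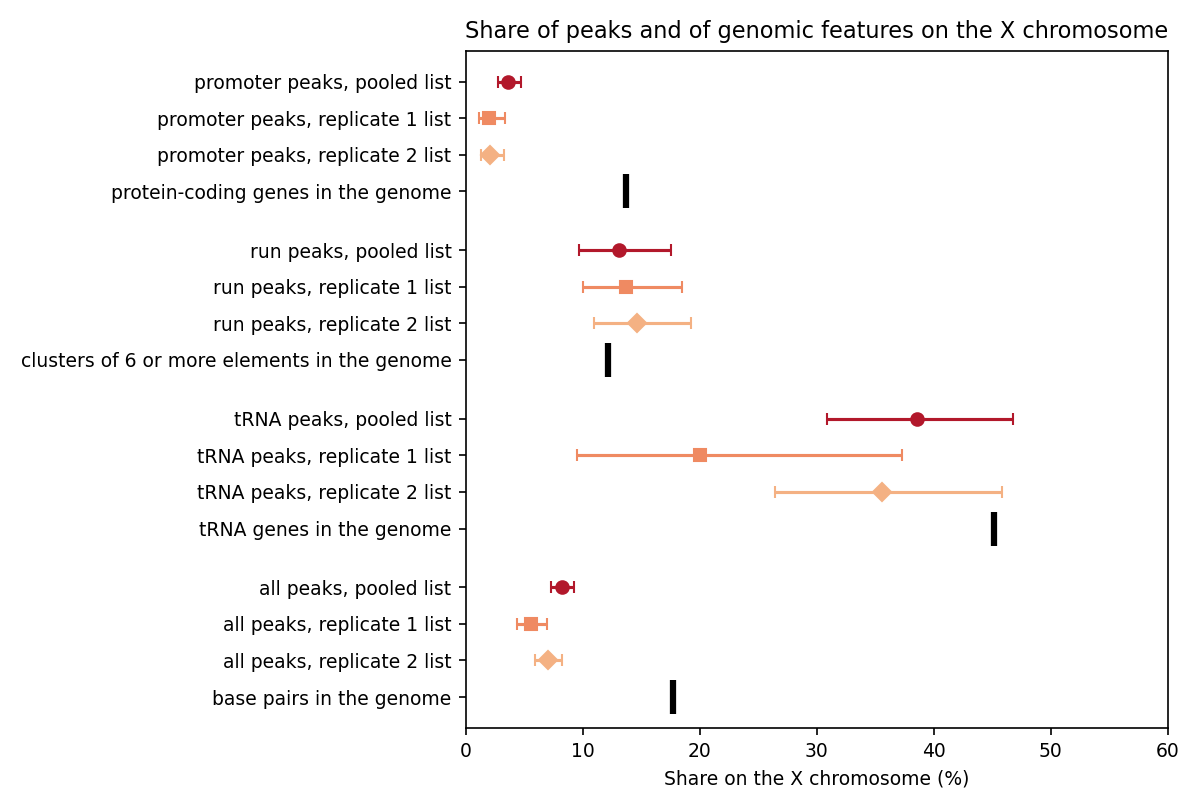
Percentage of peaks that lie on X (horizontal axis) for promoter peaks, run peaks, tRNA peaks and all peaks in the pooled list and each replicate list, with 95% Wilson intervals, above the share of the matching genomic feature on X (black bars). Promoter peaks lie far left of the share of protein-coding genes in all 3 lists, while the intervals of run peaks include the share of element clusters.

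Set against the features they sit on, X held no less than its share of the run peaks, less of the tRNA peaks and far less of the promoter peaks, as the plot of shares on X shows. X held 42 of the 347 genomic clusters of 6 or more elements and 13.1% of the 283 run peaks (interval 9.64 to 17.5%), a share 1.08 times that of the clusters, whose own share lies inside that interval. It held 45.1% of the 612 tRNA genes and 38.6% of the 140 tRNA peaks (30.9 to 46.8%), 0.855 times its share of the genes and also within the interval. It held 13.7% of the protein-coding genes but only 48 of the 1338 promoter peaks, or 3.59% (2.72 to 4.72%), 0.262 times its share of the genes. The replicate lists had the same order: X had 13.7% and 14.6% of run peaks, 20% and 35.6% of tRNA peaks, and 1.93% and 2.04% of promoter peaks in replicates 1 and 2.

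Summits in promoter windows were scarce on X. The promoter window of a protein-coding gene covered 1000 bp before and 200 bp after each of its transcript starts, and 45.6% of all 2935 summits lay in one. On X 48 of 240 summits did (20%, 15.4 to 25.5%), against 46.4 to 49.4% on the single autosomes. Of these 48, 9 (18.8%) lay in the window of an inner transcript start alone, outside that of the gene's outermost start, against 111 of 1290 (8.6%) on the autosomes. Among the 240 X summits 154 were intergenic (64.2%), against 44.1 to 58.5% on the autosomes, 52 were in introns, 30 in coding exons (12.5%, against 18.9% of all peaks) and 4 in untranslated regions. The median distance to the nearest transcript start of a protein-coding gene was 1855 bp on X and 682 bp on the autosomes. Even within promoter windows X summits lay farther out, at a median of 374 bp from the nearest start against 195 bp on the autosomes. A single X summit lay between divergent genes, 0.417% of X peaks, against 9.49 to 13.4% of the peaks of single autosomes.

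**Figure D2:**
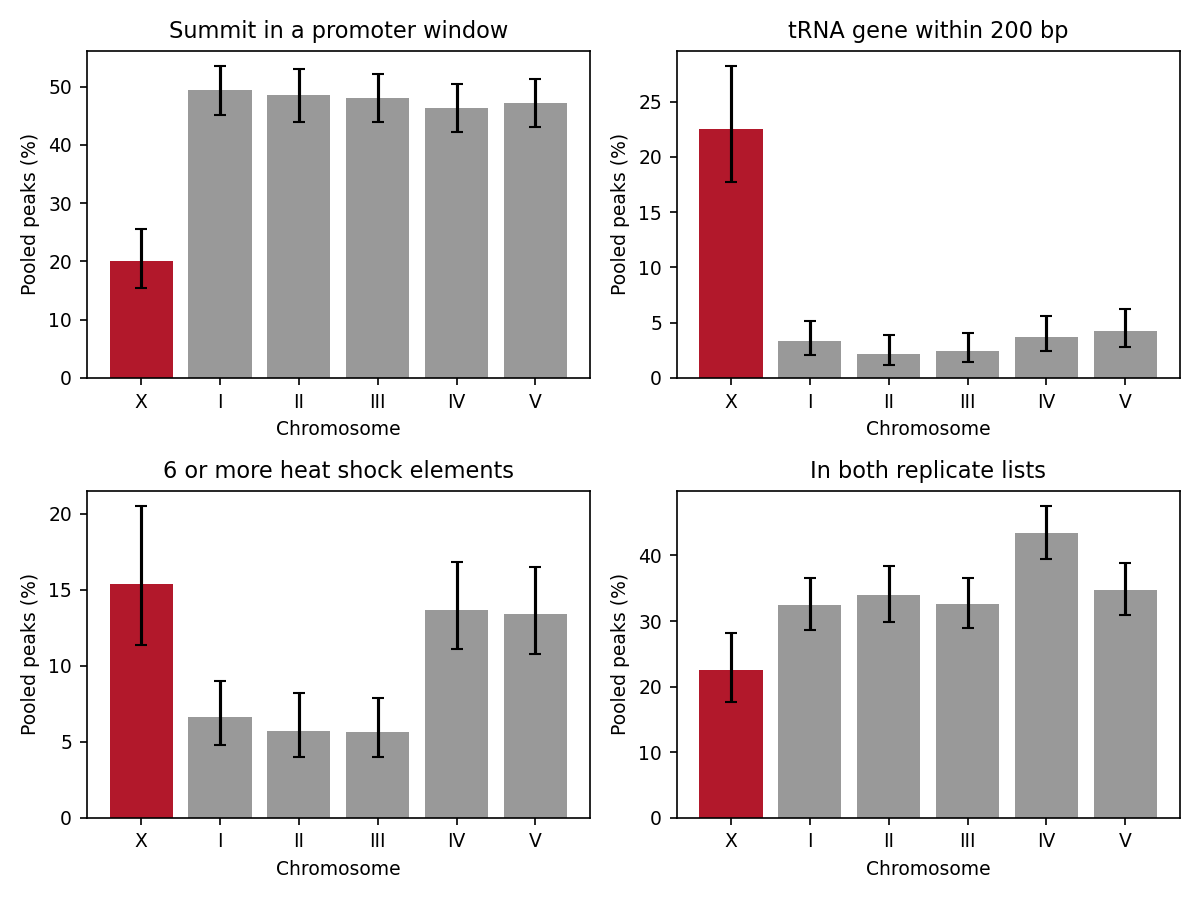
Percentage of the pooled peaks of each chromosome (X in red, then I to V in grey) with the summit in a promoter window, a tRNA gene within 200 bp, 6 or more heat shock elements within 100 bp of the summit, or overlap with both replicate lists. Error bars are 95% Wilson intervals over peaks, and X is lowest of 6 in the first and last panels and highest in the other two.

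Counted by genes, 7.63% of all protein-coding genes had a pooled summit in the promoter window. On X they were 47 of 2731 (1.72%, 1.30 to 2.28%), and on the autosomes 1477 of 17242 (8.57%). The lowest autosome was V, with 6.11%. The lists of replicates 1 and 2 gave 0.439% and 0.696% on X, against 4.36% and 6.02% on the autosomes. Candidate peaks, listed or not, were far more common at genes of both kinds: 66.1% of X genes and 72.0% of autosomal genes had one in the window, with a median best signal of 31.9 on X and 35.2 on the autosomes.

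The named promoter targets on X begin with genes of the endoplasmic reticulum stress pathway. The stronger of the 2 peaks of this list was that at pek-1 (WBGene00003970, X 11410176 to 11414887), the worm PERK kinase, which slows translation when proteins misfold in the endoplasmic reticulum. Its peak, 135 bp upstream, had a signal of 273.9 over both replicates, 96.4 in replicate 1 and 181.0 in replicate 2, and it passed in both replicate lists. hsp-3 (WBGene00002007), a chaperone of the same compartment related to mammalian BiP, had a weak peak with 1 element in a coding exon. Its summit lay 136 bp downstream of a transcript start inside the gene, and 1789 bp downstream of the gene's outermost start. It measured 55.16 over both replicates, 17.96 in replicate 1 and 37.41 in replicate 2, and it passed in replicate 2 alone. These are 2 of the 6 X-linked genes in the list of endoplasmic reticulum folding and unfolded protein response genes, where 1.72% of all X genes had a promoter peak, beside 3 of its 12 autosomal members, where 8.57% of all autosomal genes had one. The other 4, atf-6, dnj-7, pdi-2 and pdi-6, had no listed promoter peak, and their best candidate signals were 30.8 to 47.9.

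Further X promoter peaks with elements lay at oga-1, cdd-1 and asp-3, and these make up, with pek-1 and hsp-3, all 5 with 1 to 5 elements. oga-1, which encodes the enzyme that removes O-GlcNAc from proteins, had signals of 225.7 pooled, 125.0 in replicate 1 and 90.72 in replicate 2. cdd-1, a cytidine deaminase gene, had 130.5 pooled, 54.65 in replicate 1 and 78.77 in replicate 2. asp-3, an aspartyl protease gene, had 92.57 pooled, 49.98 in replicate 1 and 42.10 in replicate 2. The first passed in both replicate lists, cdd-1 in that of replicate 2 alone and asp-3 in that of replicate 1 alone. The only run peak in an X promoter window lay 9 bp inside C53C11.4, with a pooled signal of 483.9, 156.6 in replicate 1 and 318.1 in replicate 2.

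Most X promoter peaks had no perfect element, 42 of 48, and 6 of these 42 (14.3%) held one with 1 mismatch, against 198 of 1168 (17%) on the autosomes. Over X as a whole 13.1% of windows of this length hold such a match. The strongest lay 132 bp upstream of F17H10.1, with a pooled signal of 295.2, 130.1 in replicate 1 and 158.1 in replicate 2. The second lay 401 bp upstream of nhr-17, a nuclear hormone receptor gene, with 171.4 pooled, 77.52 in replicate 1 and 100.3 in replicate 2. The third lay 293 bp upstream of nipi-3, a Tribbles-like kinase gene of innate immunity, with 157.3 pooled, 63.06 in replicate 1 and 81.47 in replicate 2. All 3 passed in both replicate lists, as did the peaks at K07E3.1, serp-1.1 and mrp-4, an ABC transporter gene, with pooled signals of 110.6 to 131.9. A listed peak 728 bp upstream of cebp-1, a bZIP transcription factor gene, reached 82.63 pooled and passed in neither replicate list. The remaining 4 of the 10 strongest lay upstream of lev-9 and mom-1 together, of C04C11.25, of mai-1 and of epn-1, an epsin gene of endocytosis. Their pooled signals were 99.38 to 113.8, and the first 2 of these peaks lie at tRNA genes.

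Few genes of the prepared lists had a promoter peak on X, where few of all genes had one. The nuclear hormone receptors gave 2 of 23 X members, nhr-17 and nhr-1, and the acetylcholine receptor subunits gave 1 of 7, acr-2. On the autosomes these lists gave 7 of 246 and 0 of 22. The peaks at nhr-1 and acr-2 were weak, with pooled signals of 65.56 and 78.44, and neither was in a replicate list. None was bound among 6 X-linked genes of sex determination and dosage compensation. In the 4 of these with any candidate in the window, sdc-1, sdc-2, sex-1 and fox-1, its signal was 18.9 to 35.2. None was bound among 5 vitellogenin, 13 FMRFamide-like neuropeptide, 27 cuticle collagen, 19 neuropeptide-like or 17 F-box genes on X. In the same order, the autosomal counts were 0 of 1, 0 of 18, 7 of 129, 1 of 52 and 11 of 305. For sex determination and dosage compensation the autosomal count was 0 of 14. The lists were chosen with earlier results of these data known. The share of all protein-coding genes on X with a promoter peak, 1.72%, is the value to set beside the X counts. For the autosomal counts that value is 8.57%.

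X holds few of the heat-inducible heat shock protein and cytosolic chaperone genes, beside its 13.7% of all protein-coding genes. Of the 11 heat-inducible heat shock protein genes matched none is on X. Of 19 genes in the list of cytosolic chaperones and cochaperones only dnj-7 is. dnj-7 is also in the list of endoplasmic reticulum folding genes above, and it had no listed promoter peak. Of the 18 genes of that list 6 are on X. The small heat shock protein genes hsp-25 and hsp-43 are on X and had no listed summit in the promoter window, where their best candidates had signals of 42.8 and 54.1. A peak with 1 element did lie 2702 bp upstream of hsp-25, at X 6042194 to 6042497. It measured 175.2 over both replicates, 66.65 in replicate 1 and 123.0 in replicate 2, and it passed in both replicate lists.

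Runs of elements gave the strongest signals among the listed X peaks. Of the 25 strongest X peaks, with signals from 295.2 to 6784, 21 were run peaks, and all 25 passed in both replicate lists. The peak nearest to fbxa-190, an F-box gene whose start is 3240 bp away, had 6784 over both replicates, 3008 in replicate 1 and 3752 in replicate 2, and held rank 2 of all 2935 peaks. The peak nearest to Y102A11A.1, with a start 6176 bp away, had 5204 over both replicates, 2276 in replicate 1 and 2769 in replicate 2, and held rank 6. Another summit of the same interval had 2574 in the pooled list. The other run peaks among the 25 had signals from 318.0 to 1007, and their nearest genes were tmed-12, ZK1086.2, F52D1.2, M02E1.1, C33E10.8, F41G4.8, F49H12.7, Y40A1A.3, K09E9.4, B0310.3, C53C11.4, F33C8.2, T25D1.3, gcy-36 and C24A3.9. Except for C53C11.4, their starts lay more than 1000 bp from the summit.

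Run peaks on X held 6 to 31 elements within 100 bp of the summit, with a median of 16. All 37 summits lay in windows of which at least 50% was masked as repeat in the reference, which held for 23.5% of all pooled peaks and 22.1% of X peaks. By location 29 were intergenic and 7 intronic, and 1 of 37 (2.70%) was in a promoter window, against 32 of 246 run peaks (13.0%) on the autosomes. Their median signal was 336 on X, with quartiles of 211 and 804, against 330 on the autosomes, with quartiles of 167 and 598. In this class X and autosomal peaks had nearly the same median.

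The reverse view, from all elements of the genome, gave a like result. Elements whose starts lay within 100 bp of each other were joined into clusters. With an extension of 100 bp allowed, 7.18% of the clusters were overlapped by a pooled peak, and without it 6.45%. The counts of overlapped clusters below include the extension unless stated. X had 46.1 clusters per Mb, against 81.7 per Mb on the autosomes. Of all clusters with 6 or more elements 75.5% were overlapped, and of isolated elements 3.04%. Of the 42 X clusters with 6 or more 35 were overlapped (83.3%, 69.4 to 91.7%), against 227 of 305 (74.4%, 69.2 to 79.0%) on the autosomes. Of isolated elements 18 of 733 were overlapped on X (2.46%, 1.56 to 3.85%), against 178 of 5708 (3.12%, 2.70 to 3.60%) on the autosomes. The X and autosomal intervals overlap in both cases, and the differences were not tested. Without the extension, 83.3% of X and 72.5% of autosomal clusters of 6 or more were overlapped. For isolated elements the shares without it were 2.18% on X and 2.56% on the autosomes. The 7 unbound X clusters of 6 or more held 6 to 22 elements with a median of 6, and the 35 bound ones held 7 to 117 with a median of 22.

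**Figure D3:**
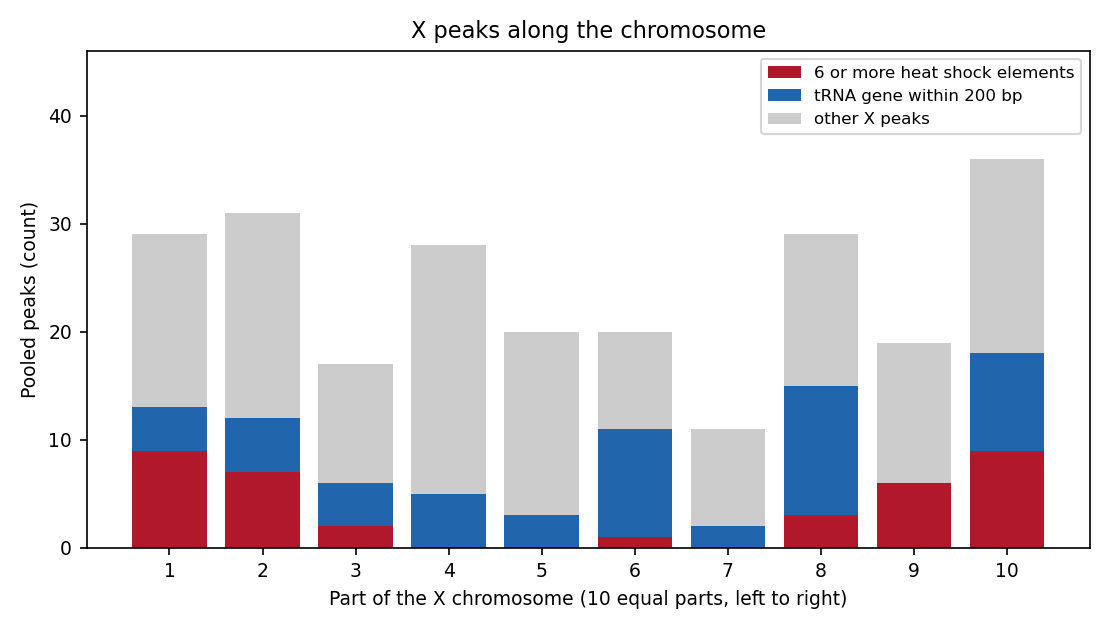
Number of pooled X peaks in each of 10 equal parts of the chromosome, left to right, split into run peaks, peaks with a tRNA gene within 200 bp and all others. Run peaks number 9 and 7 in the first pair of parts and 6 and 9 in the last pair, and 6 in all between.

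Run peaks lay toward the ends of X, as the count along the chromosome shows. From left to right, 10 equal parts of X held 9, 7, 2, 0, 0, 1, 0, 3, 6 and 9 run peaks, and the genomic clusters of 6 or more elements numbered 9, 8, 2, 0, 0, 3, 0, 5, 7 and 8. A run peak is defined by 6 or more elements at its summit, so these counts of peaks and clusters are linked by definition. Promoter peaks numbered 2 to 8 in every part and were not gathered toward the ends. The longest chain of X peaks no more than 20000 bp apart held 6 peaks between 143025 and 169925, near Y73B3A.8 and tmed-12, and 5 of them were run peaks. The next held 5 peaks between 16928178 and 16932687, around the start of C30E1.9, of which 1 is a tRNA peak and none a run. Of the 7 chains of 4 peaks, the one that spans the most base pairs lay between 1482355 and 1505095, near acly-1, the gene for ATP citrate lyase, dhs-25 and F09E10.1, and ended at the peak by tts-1.

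Outside runs, the strongest pair of listed X peaks lay at noncoding RNA genes. They are 2 of the 4 peaks without a run among the 25 strongest. The peak at X 16929623 to 16930127 had a signal of 1475 over both replicates, 663.5 in replicate 1 and 798.9 in replicate 2, with rank 31 of the whole list. Its summit lay 65 bp upstream of C30E1.9 (WBGene00022951, X 16929914 to 16944683), annotated as a noncoding RNA, in unmasked sequence with 1 perfect element. It was the only X peak among the 100 strongest of the list that was not a run peak.

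The next lay 135 bp upstream of tts-1 (WBGene00006650, X 1504131 to 1504841), a long noncoding RNA known for its abundance in dauer larvae and in long-lived daf-2 mutants, and its summit lay inside a shorter noncoding gene, F09E10.14. It measured 412.8 over both replicates, 209.4 in replicate 1 and 211.3 in replicate 2, and it held no element. The third, at X 2971468 to 2971701, had 337.5 over both replicates, 171.4 in replicate 1 and 161.8 in replicate 2. It also had no element within 100 bp of the summit. The nearest annotated noncoding start was that of the microRNA gene mir-34 (X 2969752 to 2969848), 1781 bp away on the gene's upstream side, and the nearest protein-coding start was that of aakg-3, an AMP-activated kinase subunit gene, 4819 bp away. A weaker listed summit next to the third peak, with a signal of 8.31 over both replicates, did have 1 to 5 elements within 100 bp. The last of the 4 is the promoter peak of the protein-coding gene F17H10.1, described above. All 4 passed in both replicate lists. tts-1 and mir-34 were named after their values were seen.

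Other noncoding genes within 200 bp of an X summit were mostly unnamed. Leaving out tRNA genes and pseudogenes, 57 noncoding genes lay within 200 bp of 48 X peaks, many of them beside a tRNA gene. They included the microRNA genes mir-8196a, with a peak of 106.9 over both replicates, and mir-54, with a peak of 87.3, and the small nucleolar RNA gene C53B7.8, with a peak of 100.2. The first 2 were not among the strong sites: their signals in replicate 1 were 47.79 and 34.26, and in replicate 2 they were 57.28 and 64.50.

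**Figure D4:**
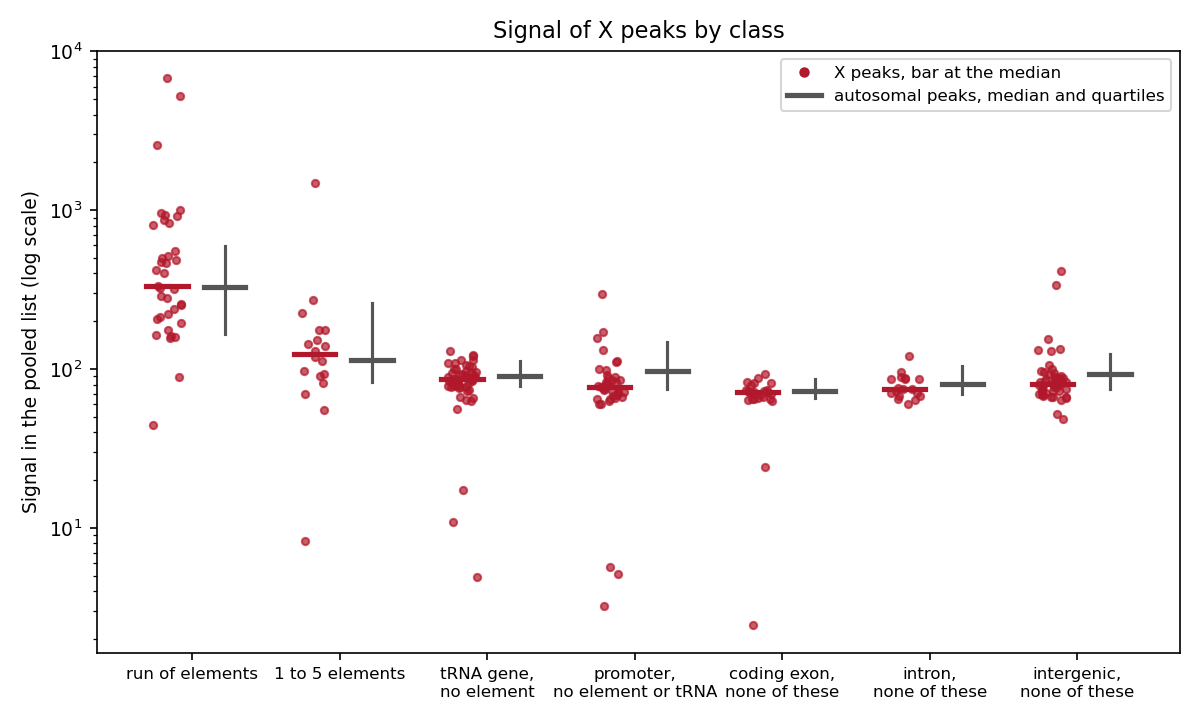
Signal of every X peak in the pooled list (points, log scale) by class, with the X median as a red bar and the median and quartiles of autosomal peaks of the same class in grey; 2 X peaks in untranslated regions are not drawn. Run peaks reach 6784 and have nearly the same median on X and the autosomes, while X promoter peaks have a median of 77.0 against 97.4.

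Peaks at tRNA genes outnumbered the run, the 1 to 5 element and the promoter class on X. A tRNA gene lay within 200 bp of 54 X summits (22.5%, 17.7 to 28.2%), against 2.13 to 4.23% of the peaks of single autosomes and 4.77% of all pooled peaks. In 33 of the 54 the summit lay inside a tRNA gene. The strongest X tRNA peak had its summit 21 bp inside R01H5.t1 (WBGene00014474, X 12563788 to 12563859), a gene for a threonine tRNA. It measured 130.3 over both replicates, 50.71 in replicate 1 and 81.19 in replicate 2, and it passed in both replicate lists. The next lay between M02F4.t1 (glycine) and M02F4.t2 (glutamate) with 123.5, 60.17 and 67.21 in the same order of lists, followed by the peak at F15G9.t1 and F15G9.t2 (both alanine), with 120.6, 46.50 and 72.21. None of the 54 held a perfect element, and their signals were moderate, with a median of 86.3 on X against 90.8 for autosomal tRNA peaks without an element.

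Counted per tRNA gene, X did not stand above the autosomes. Of all 612 tRNA genes 24% had a pooled summit within 200 bp. On X they were 57 of 276 (20.7%, 16.3 to 25.8%), and on the autosomes 90 of 336 (26.8%, 22.3 to 31.8%), with intervals that overlap. The list of replicate 1 gave 3.26% on X and 7.44% on the autosomes, and that of replicate 2 gave 13% and 19%. By product the X genes with a peak were spread widely, from 6 of 13 alanine and 6 of 23 glutamate genes to 2 of 27 arginine genes, 0 of 9 histidine and 0 of 5 tryptophan genes. Identical tRNA copies share reads, and no source used here says how such reads were placed, so a peak at a single copy is uncertain.

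Support in the replicates was weaker on X and differed between classes. Of the 240 X peaks 54 (22.5%, 17.7 to 28.2%) overlapped a peak of both replicate lists, against 34.5% of all pooled peaks and 32.5 to 43.4% of those on single autosomes. Neither list held 116 of them (48.3%), against 36.1% of all and 30.2 to 39.4% on single autosomes. The list of replicate 1 held 64 X peaks (26.7%, against 39.5% of all), and that of replicate 2 held 114 (47.5%, against 58.9% of all). Of the run peaks 33 of 37 on X (89.2%) and 212 of 246 on the autosomes (86.2%) were in both lists. Of the promoter peaks 9 of 48 on X (18.8%, 10.2 to 31.9%) and 502 of 1290 on the autosomes (38.9%, 36.3 to 41.6%) were. Of the tRNA peaks without an element it was 3 of 54 on X (5.56%) and 16 of 85 on the autosomes (18.8%), and 25 further X tRNA peaks were in the list of replicate 2 alone. Of 25 coding exon peaks on X without element, promoter or tRNA gene 23 (92%) were in neither list, against 194 of 298 (65.1%) on the autosomes.

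**Figure D5:**
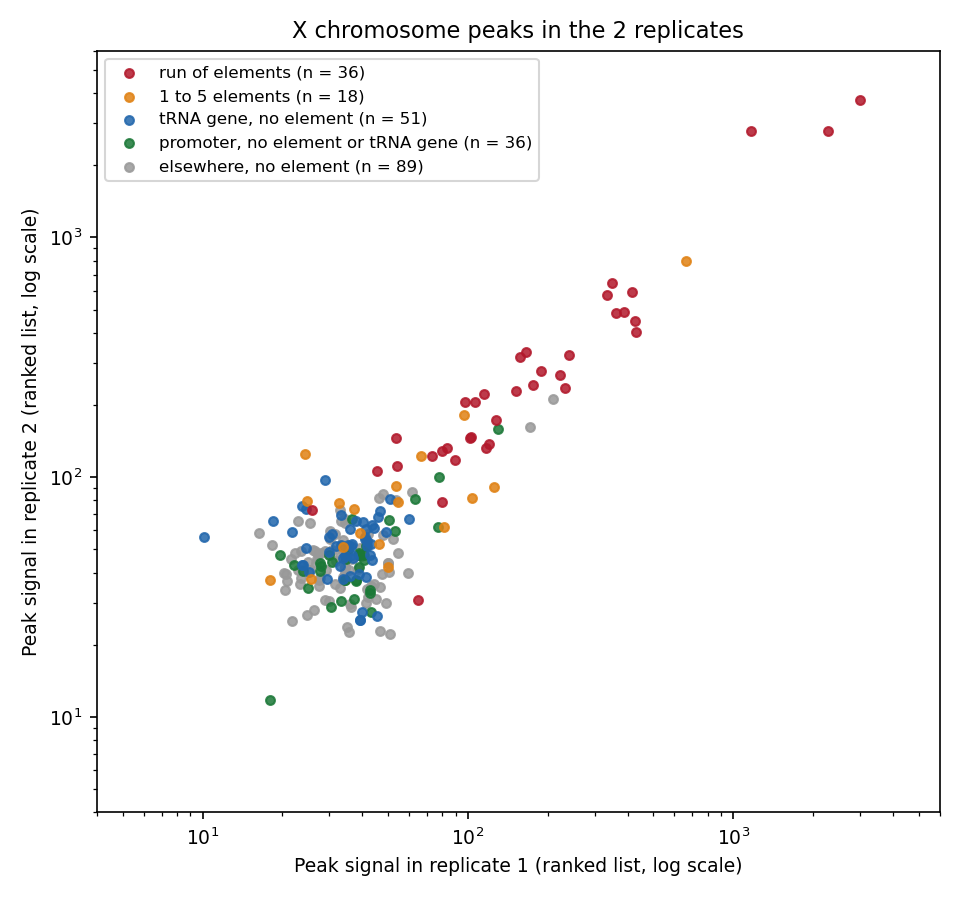
Signal of X peaks in the ranked list of replicate 1 (horizontal) and replicate 2 (vertical), both on log scales, by class; 230 of 240 peaks have a candidate in both. The run peaks high in one list are high in the other, from below 100 to 3008 and 3752, and the other classes crowd between about 20 and 100.

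Absence from a replicate list did not mean absence of a candidate. Candidates in both ranked lists overlapped 230 of the 240 X peaks, as the plot of replicate signals shows, and 2626 of the 2695 autosomal peaks. The ranked lists of replicates 1 and 2 held 48941 and 81721 candidates. Of the 176 X peaks missing from the list of replicate 1, 170 had a candidate in its ranked list, with a median signal of 33.8. Of the 126 missing from the list of replicate 2, 122 had one there, with a median of 41. On the autosomes 1561 of 1601 and 1052 of 1081 had one. The median irreproducible discovery rate of these X candidates was 0.317 in replicate 1 and 0.0781 in replicate 2. The autosomal medians were 0.256 and 0.084, and listed peaks had a rate of at most 0.01. Over the 230 peaks Spearman's rho between the replicates was 0.516 on X, against 0.681 over 2626 autosomal peaks. These values are a description, since the peaks of a list share its library and were selected on both. Within classes rho on X was 0.939 over 36 run peaks and 0.0806 over 51 tRNA peaks, against 0.857 over 242 and 0.498 over 83 on the autosomes.

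Peaks of 1 replicate's list with no counterpart in the other numbered 9 in replicate 1 and 73 in replicate 2 on X. The strongest 3 of replicate 1 were an intronic run peak nearest to scd-1 with a signal of 64.71, and peaks without an element nearest to gtr-1 and C53B7.6 with 59.24 and 54.51. The strongest 3 of replicate 2 were at runs or part runs nearest to ZK1086.2, tmed-12 and Y73B3A.8, with signals of 167.5, 124.5 and 111.5. The ranked list of the other replicate held a candidate for all of these but that at ZK1086.2.

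By signal, the share of X varied along the list, which was 8.18% X as a whole. X held 11 of the 100 strongest pooled peaks, 10 of them run peaks. The interval of that share, 6.25 to 18.6%, includes the share of the whole list. X then held 25 of the next 400 (6.25%), 23 of the next 500 (4.60%) and 33 of the 500 after them (6.60%). Among ranks 1501 to 2000 it held 59 of 500 (11.8%), of which 21 were tRNA peaks and 11 lay in promoter windows. It held 9.60% of ranks 2001 to 2500 and 9.43% of the ranks below. The median signal was 84.8 on X, with quartiles of 71.8 and 113, and 93.8 on the autosomes, with quartiles of 73.8 and 150. In the list of replicate 1 it was 89.1 on X and 74.1 on the autosomes, and in that of replicate 2 it was 67.2 and 71.6, so the order was not the same in the lists. Within the promoter class without an element or tRNA gene it was 77.0 on X (quartiles 67.3 and 88.7) and 97.4 on the autosomes (75.5 and 148).

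The limits of the list touch X as well. A width of 304 bp was recorded for 200 of the 240 X peaks (83.3%) and 80.4% of autosomal peaks. Among peaks without an element the shares were 97.3% and 87.7%, but among run peaks they were 13.5% and 21.5%. A signal below 50 was recorded for 11 X peaks (4.58%), 9 of which overlapped a stronger listed peak. Among them are second summits at hsp-3, ham-2 and cebp-1. On the autosomes it was recorded for a like share, 127 of 2695 peaks (4.71%), of which 111 overlapped a stronger listed peak. Of 144 candidates that passed the irreproducible discovery rate but are not in the thresholded list 23 were on X. They were 23 of 263 passing candidates on X, against 121 of 2816 on the autosomes. The strongest of those on X, at X 15810958 to 15811173, had a signal of 2547, and the next had 925.5, 924.7 and 896.9. All of these exceed the 412.8 of the peak by tts-1. The rankings of X peaks above cover listed peaks only.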

How the data were processed

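Peak lists from 2 biological replicates of whole young adults were used. The deposited listings give the build as ce11. The peaks' signal values were deposited by the authors as their peak caller wrote them, and lists are not on a common scale. The −log10 of the irreproducible discovery rate, which the authors deposited in the ranked lists, measures how well a peak's rank agrees between peak sets, and every listed peak had a rate of at most 0.01. The sources used here name no aligner, peak caller or read number. There were 16 columns of unnamed single peak sets, which were not used. Replicate values come from each replicate's own list, from the overlapping peak whose summit is closest (minimum overlap 1 bp).

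Genes came from Ensembl release 115 and tRNA products from RefSeq, on the same assembly. Counts, shares, 95% Wilson intervals and medians were computed with Python 3.11.15, numpy 2.4.6, pandas 2.3.3, scipy 1.17.1 and matplotlib 3.10.9, after the element search, the overlaps and the intervals were tested on simulated data. No test between X and autosomes was made. The X peaks and the 19 gene lists were chosen with earlier results of these data known. Named were the 25 strongest X peaks, list members with a promoter peak, the 10 strongest promoter peaks without an element, all promoter peaks with 1 to 5 elements, the 3 strongest peaks of 1 replicate list alone, the 3 longest chains (by number of peaks, then span), and noncoding genes within 200 bp of a summit. Other genes were named after their values were seen. Alternatives were other lists, windows, element definitions and overlap rules.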

Additional observations from a re-analysis of the deposited data

How the results depend on the processing

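Of 63 alternative values of 8 results, 57 kept the order of X and autosomes and 34 stayed within the counting interval of the value as reported, or, for the median signal, within the spread between the replicate lists. No paired analysis was possible because the samples form 1 group. The share of peaks on X relative to its share of protein-coding genes was 0.598. It was 0.439 in the 1467 strongest peaks, 0.463 against base pairs, and 0.403 to 0.510 in the single replicate lists. The median signal of X over autosomal peaks was 0.904 and changed direction in the 1467 strongest (1.07), in peaks with 1 to 5 elements (1.09), in peaks with 6 or more (1.02) and in replicate 1 alone, with a range of 0.938 to 1.20 over the single lists. The cause was not tested.

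A perfect element was found in 54.5% of X peaks among the 1467 strongest peaks (autosomes 25.3%). In the single lists it was found in 42.0 to 64.2% (autosomes 22.5 to 27.6%). X was little above the autosomes with 1 mismatch allowed (31.2% against 29.2%) and with 2 units (37.9% against 36%). With 1 mismatch it lay within the range of single autosomes, 26.4 to 32.7%. Runs of 6 or more made up 39.8% in the 1467 strongest and 31.3 to 52.2% in the single lists. The promoter share was 11.7% with a window of 500 bp upstream to 100 bp downstream and 34.6% with 2000 bp to 200 bp, and 13.7 to 17.9% in the single lists. X genes with a promoter peak were 0.989% and 3.19% with those windows, 0.586% in the 1467 strongest and 0.439 to 0.696% in the single lists. Presence in both lists was 7.57% for X peaks without an element and 89.2% for runs, where X was not below the autosomes. With the extension of 100 bp, overlapped X clusters were 7.22% of all clusters, and without it 6.73%. With it they were 2.46% of isolated elements, 14.3% of clusters of 2 to 5 and 83.3% of clusters of 6 or more. In each of these but the isolated elements, the runs and the 4 changes of direction, X kept its side of the autosomes. Alternatives chosen after the data were seen (tRNA peaks left out, signals below 50 left out, unlisted candidates added) moved no value beyond its interval. Unknown read depth limits all values, since a weak peak may be missed in a library of lower depth.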
